A study of Mus musculus with 8 samples.

Results

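Gene expression was compared between the ends of a Notch series in MC3T3-E1, a line of osteoblasts started from the skull bone of newborn mice. At the high end, osteoblasts shared their dish with tumour cells that overexpressed Jagged1, a Notch ligand, in the solvent DMSO (2 arrays, Jagged1 DMSO). At the low end, they shared it with vector control tumour cells and received MRK-003, an inhibitor of gamma-secretase (2 arrays, vector MRK-003). These 4 of the series' 8 arrays were chosen by their labels alone. The others were 2 arrays of Jagged1-overexpressing tumour cells with MRK-003 (Jagged1 MRK-003) and 2 of vector control tumour cells with DMSO (vector DMSO), and vector DMSO was placed between the ends for every gene that differed. All groups were co-cultures in the same medium, each replicate is given as a biological one, and 175 ng of RNA went into each labelling. The drug's dose, the length of culture, the tumour line and its species, and how far osteoblast RNA was parted from tumour RNA are left unstated by the labels. The RNA is from bulk cultures, in which fewer cells of a type and less RNA per cell cannot be told apart.

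Notch receptors sit on the cell surface and are activated by ligands on a neighbouring cell. Gamma-secretase then cuts the receptor inside the membrane, and the freed intracellular part joins the DNA-binding protein Rbpj and Mastermind proteins to switch on genes such as those of the Hes and Hey repressors. In the osteoblast lineage, Notch is known for holding back maturation and for changing the signals that osteoblasts send to osteoclasts, the cells that resorb bone. The comparison asks which osteoblast genes separate strong from blocked Notch signalling, where ligand and inhibitor both differ between the ends.

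A level here is the log2 ratio of a co-culture's Cy3 signal over the Cy5 signal of a common mouse reference RNA on the same array, and a difference is between 2 such levels, so 1 unit is a doubling. Each slide held 1 array of every group, replicate 1 on slide 1 and replicate 2 on slide 2, and differences were taken within slides. Jagged1 DMSO was at position 2 and vector MRK-003 at position 3 of both slides, so group and position on the slide cannot be told apart. Slide 1 was brighter: 86.0% to 89.4% of its spots were well above background in Cy3, against 71.4% to 78.6% on slide 2. A few spots had extreme local backgrounds, with maxima of 2414.5 and 21069 on the Jagged1 DMSO arrays against 67 and 113 on the vector MRK-003 arrays. Backgrounds over 2 times their array's median were set to the median, which touched 5 and 27 Cy3 spots with Jagged1 DMSO and 1 and 8 with vector MRK-003.

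Across the genome, 2230 of 23441 genes differed between Jagged1 DMSO and vector MRK-003 (9.51%; limma, Benjamini-Hochberg adjusted p under 0.05). Of these, 934 were higher with Jagged1 DMSO (3.98% of genes) and 1296 were lower (5.53%). Most differences were small: the median was 0.68 among the higher genes and -0.60 among the lower ones. A log2 difference of at least 1 was reached by 222 higher genes (0.947%) and 189 lower genes (0.806%), and one of at least 2 by 32 higher and 17 lower genes. The 2 and 2 arrays did not overlap for 2154 of the 2230 genes (9.19% of those tested), while 9669 of all genes (41.2%) had no overlap. The count rests on few arrays: 579 genes passed without replicate 2 of vector MRK-003, 701 without its replicate 1 and 1000 without replicate 2 of Jagged1 DMSO. Without the slide term 498 genes passed, 55.2% of them higher against 41.9% in the fit with slides, and with local backgrounds as deposited 898 passed.

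The Notch pathway genes that differed were nearly all higher with Jagged1 DMSO. Among 11 measured Notch target genes, 5 rose, 0 fell and 6 did not pass, with a median difference of 0.17 against -0.01 over all genes. Of the target genes, 4 rose without either vector DMSO array, without either Jagged1 MRK-003 array and without replicate 1 of Jagged1 DMSO, and 3 rose when any of the remaining arrays was left out. Hey1, a repressor switched on by Notch, led the whole comparison. Its level was 3.29 and 3.05 with Jagged1 DMSO, -2.67 and -2.17 with vector MRK-003, and -0.61 and -0.56 with vector DMSO (replicates 1 and 2). The 3 groups were apart, with vector DMSO nearer to the low end. The rise was 5.59 ± 0.17 (SE, n = 2 per group), or 48.3-fold (limma, adjusted p = 7.02e-05).

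Hes1, the Hes repressor best known as a Notch target, followed another spacing. Its level was 2.20 and 2.27 with Jagged1 DMSO, -0.03 and 0.46 with vector MRK-003, and 1.34 and 1.80 with vector DMSO. Again no arrays of different groups overlapped, but here vector DMSO was nearer to the high end. Hes1 rose by 2.02 ± 0.12, or 4.07-fold (limma, adjusted p = 0.000307). Nrarp, a small ankyrin repeat protein that limits Notch signalling, stood at 0.77 and 0.81 with Jagged1 DMSO, -0.14 and -0.17 with vector MRK-003, and -0.28 and -0.07 with vector DMSO. Its rise of 0.95 ± 0.09 (limma, adjusted p = 0.00158) set Jagged1 DMSO apart from both other groups, which overlapped. Nrarp is dim: it was well above background on both Jagged1 DMSO arrays, 1 vector MRK-003 array, 1 vector DMSO array and no Jagged1 MRK-003 array. It passed the filter on dim probes only through Jagged1 DMSO, where it is high, so its call and its place near vector MRK-003 rest partly on values near background. Over probes well above background on all 8 arrays, 4 of 10 target genes rose. With backgrounds as deposited its difference was 0.40 (adjusted p = 0.145).

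The remaining target genes moved less. Hes6, a Hes relative that acts against Hes1, rose by 0.69 ± 0.11 (limma, adjusted p = 0.0119), and Heyl, the third Hey family repressor, by 0.34 ± 0.08 (limma, adjusted p = 0.0411). Neither passed without the slide term (adjusted p of 0.0619 for Hes6 and 0.15 for Heyl). Hes6 did not pass without replicate 2 of Jagged1 DMSO (adjusted p = 0.063) or without replicate 1 (0.0518) or 2 (0.124) of vector MRK-003. Heyl lost its call when any of the 8 arrays was left out, with adjusted p from 0.0695 to 0.257. Hes2, Hes3, Hes5 and Hes7 lay between -0.02 and 0.17 with no call. Efnb2, an ephrin ligand, was at -0.56 ± 0.29 (limma, adjusted p = 0.312).

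Among the receptors, Notch1 and Notch3 rose, and Notch2 and Notch4 had differences of -0.01 and 0.21 that did not pass. Notch3 was at -0.28 and -0.38 with Jagged1 DMSO, -2.51 and -2.22 with vector MRK-003, and -1.97 and -1.98 with vector DMSO. It rose by 2.04 ± 0.11, or 4.11-fold (limma, adjusted p = 0.000275), and the 3 groups did not overlap. Notch1 was at 2.29 and 1.91 with Jagged1 DMSO, 0.67 and 0.43 with vector MRK-003, and 1.53 and 0.89 with vector DMSO, a rise of 1.55 ± 0.11 between the ends (limma, adjusted p = 0.000599). Jag1, the ligand that the tumour cells overexpressed, was the only 1 of 6 measured ligands to pass. Its level was 3.33 and 3.30 with Jagged1 DMSO, 1.83 and 2.01 with vector MRK-003, and 2.15 and 1.95 with vector DMSO, which overlapped with vector MRK-003. The rise of 1.40 ± 0.11 (limma, adjusted p = 0.000796) came from the brighter of 2 probes, and the other was at 0.82. Jag1 stood at 1.99 and 2.09 with Jagged1 MRK-003, so its arrays with MRK-003 lay near the vector arrays. Whether these Jag1 signals are of osteoblast or of tumour RNA was not tested. Dlk1, Dll1, Dll3, Dll4 and Dner lay between -0.12 and 0.12.

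Deltex proteins are ubiquitin ligases that bind Notch, and Fringe enzymes add sugars that set which ligand a receptor answers to. Dtx4 was at 2.47 and 2.31 with Jagged1 DMSO, -0.88 and -0.81 with vector MRK-003, and 0.61 and 0.67 with vector DMSO, well apart in all 3 groups. It rose by 3.23 ± 0.10, or 9.39-fold (limma, adjusted p = 7.02e-05), and its other probes were at 2.12 and 2.50. Dtx3 rose by 0.41 ± 0.09 (limma, adjusted p = 0.0364), a call that held only without replicate 1 of Jagged1 DMSO when 1 array at a time was left out. Dtx1 and Dtx2 were at 0.07 and 0.46, and Lfng, Mfng and Rfng lay between -0.12 and 0.11, with no call. Of 20 genes for receptor processing and the transcription complex, 1 fell and 0 rose (median 0.05), near the 5.53% called lower over all genes. It was Rbpj, at -0.42 ± 0.10 (limma, adjusted p = 0.0461), which did not pass without either vector MRK-003 array, either Jagged1 MRK-003 array or replicate 2 of Jagged1 DMSO.

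Cdh15 and Fap were among the largest rises beside Hey1 and Dtx4. Cdh15, M-cadherin of muscle precursor cells, was at 3.02 and 2.77 with Jagged1 DMSO, -0.79 and -0.81 with vector MRK-003, and 0.21 and -0.36 with vector DMSO. It rose by 3.69 ± 0.16, or 12.9-fold (limma, adjusted p = 0.000156). Fap, a surface protease of activated fibroblasts, was at 3.08 and 2.57 with Jagged1 DMSO, -0.65 and -0.44 with vector MRK-003, and 0.51 and 0.25 with vector DMSO. It rose by 3.37 ± 0.17, or 10.3-fold (limma, adjusted p = 0.000235). In both genes the 3 groups were in the same order and none overlapped. Fap was well above background on 1 of 2 vector MRK-003 arrays, and its difference with backgrounds as deposited was 2.37 (adjusted p = 0.057).

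The array reads each of these genes through 1 stretch of 60 bases, shown for Hes1, Cdh15 and Fap because their levels rest on 1 probe each. On build mm7, per the deposited files, the Hes1 probe lies on the plus strand at chr16:29738743-29739038, the Cdh15 probe on the plus strand at chr8:121508826-121508885 and the Fap probe on the minus strand at chr2:62432993-62433052. The Hes1 probe covers 296 genome bases with 60 of its own, so its bases do not form 1 unbroken stretch there. Exon and UTR positions on that build were not used here.
Hes1 probe: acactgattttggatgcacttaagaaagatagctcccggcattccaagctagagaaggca
Cdh15 probe: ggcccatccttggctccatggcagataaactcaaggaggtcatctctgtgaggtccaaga
Fap probe: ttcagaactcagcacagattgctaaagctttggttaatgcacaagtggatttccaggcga

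Mcam, an adhesion molecule also called CD146, rose by 2.87 ± 0.12 with its 2 Jagged1 DMSO arrays at 1.16 and 0.95, against -1.81 and -1.83 with vector MRK-003 and -1.62 and -1.63 with vector DMSO. Igfbp5, a binding protein for insulin-like growth factors, rose by 2.67 ± 0.22, and Ccn2, connective tissue growth factor, by 2.64 ± 0.39. Hp, the haemoglobin scavenger haptoglobin, rose by 2.59 ± 0.26 and the adhesion receptor Gpr133 by 2.52 ± 0.18. These 5 rises passed (limma, adjusted p from 0.000156 to 0.00809). Hp did not pass without the slide term (adjusted p = 0.0899). The other probes were lower for Mcam (0.87), Igfbp5 (0.63) and Gpr133 (0.30 and -0.07). Slc17a1, a phosphate transporter of the kidney, had 3.48 and 1.98 with Jagged1 DMSO, 0.20 and -0.19 with vector MRK-003, and 0.45 and 0.01 with vector DMSO. Its rise of 2.72 ± 0.30 passed (limma, adjusted p = 0.00283), but it entered the test only through Jagged1 DMSO, where it is high. It was well above background on 1 vector MRK-003 array, 1 vector DMSO array and no Jagged1 MRK-003 array, and with backgrounds as deposited it was 1.34 (adjusted p = 0.152).

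Il6, the cytokine interleukin-6, which acts on osteoclast formation through osteoblasts, was at 4.01 and 3.62 with Jagged1 DMSO, 0.78 and 1.41 with vector MRK-003, and 2.45 and 1.73 with vector DMSO. The groups did not overlap. Il6 rose by 2.72 ± 0.29, or 6.57-fold (limma, adjusted p = 0.00254), and the slides gave 3.23 and 2.21. Where vector DMSO lay was less certain, at 51.6% of the way from vector MRK-003 to Jagged1 DMSO on slide 1 and 14.4% on slide 2. Bmf, a BH3-only protein that promotes cell death, had 1.42 and 1.35 with Jagged1 DMSO, -1.27 and -1.63 with vector MRK-003, and -0.29 and -0.13 with vector DMSO. Its probe rose 7.14-fold (limma, adjusted p = 0.000606), but other Bmf probes were at 0.10 and 0.66.

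The deepest falls were in Ch25h and Tnfrsf19. Ch25h, the enzyme that makes 25-hydroxycholesterol, was at 1.5 and 1.14 with Jagged1 DMSO, 4.33 and 5.36 with vector MRK-003, and 3.27 and 3.44 with vector DMSO. It fell by 3.53 on the log2 scale, 11.5-fold, with an SE of 0.31 (limma, adjusted p = 0.00122). Tnfrsf19, a TNF receptor family member, was at -1.70 and -1.14 with Jagged1 DMSO, 1.73 and 2.47 with vector MRK-003, and 1.31 and 1.32 with vector DMSO. It fell by 3.52, with an SE of 0.20 (limma, adjusted p = 0.000275). Both genes had vector DMSO between the ends on every array.

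Next came Thsd4, a matrix protein that binds fibrillin (-3.29 ± 0.19), Ccn3, a matricellular relative of Ccn2 (-3.05 ± 0.17), and the tyrosine phosphatase Ptpn13 (-2.89 ± 0.20). Cd34, a surface marker of progenitor and stromal cells, was at -3.73 and -3.06 with Jagged1 DMSO, -1.0 and -0.52 with vector MRK-003, and -1.59 and -1.12 with vector DMSO. Vector DMSO lay below vector MRK-003 there without overlap, nearer to it than to Jagged1 DMSO, and the difference between the ends was -2.63 ± 0.10 (limma, adjusted p = 9.83e-05). The Wnt ligand Wnt10a (-2.57), the p53 relative Trp63 (-2.56), the Ras association protein Rassf2 (-2.44), the Wnt feedback inhibitor Axin2 (-2.20), the bone proteoglycan Omd (-2.17) and the tendon transcription factor Scx (-2.07) completed the 12. All 12 falls passed (limma, adjusted p from 9.83e-05 to 0.00425). Other probes were at -0.50 and -0.01 for Trp63, -0.42 for Rassf2, which did not pass without the slide term (adjusted p = 0.0562), and -0.92 for Ptpn13, and Axin2 was at -1.78 with backgrounds as deposited (adjusted p = 0.0589).

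**Figure D1:**
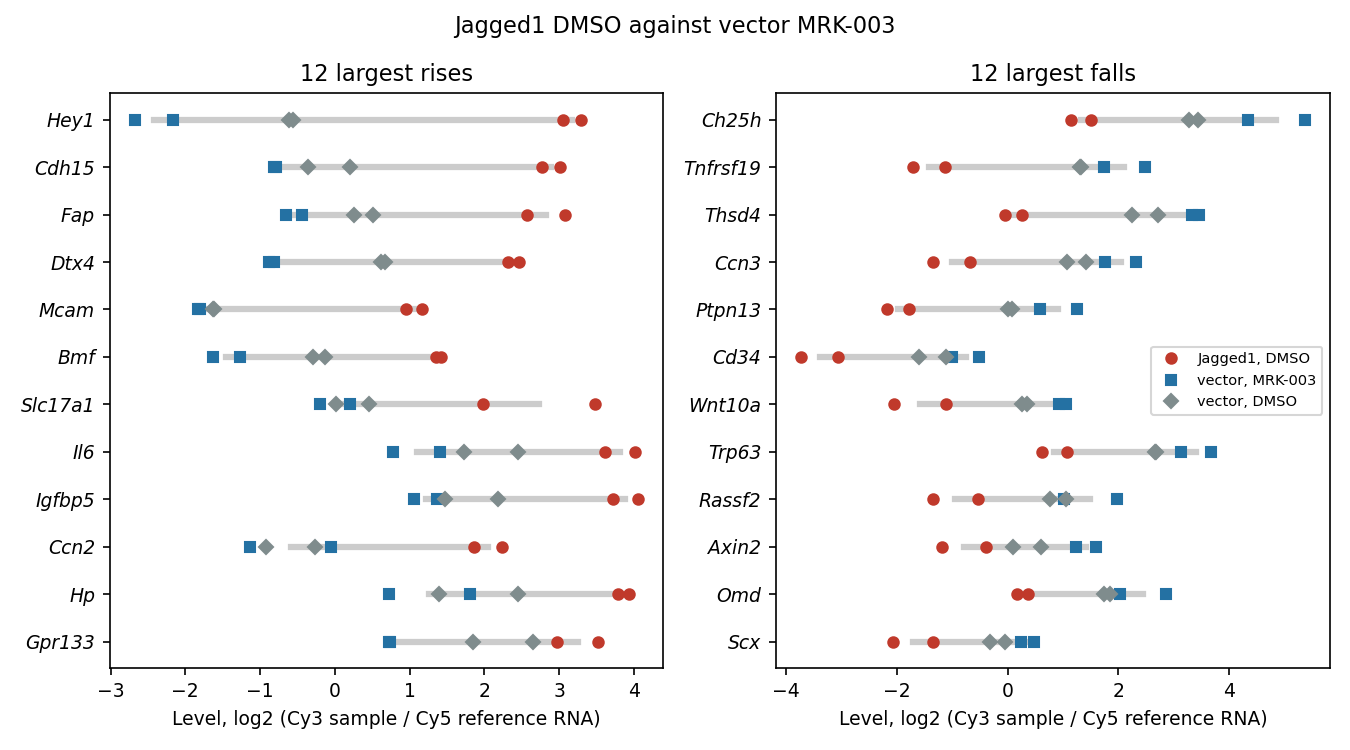
Levels of the 12 genes with the largest rises (left) and the 12 with the largest falls (right), as log2 of Cy3 sample over Cy5 reference RNA, with 1 symbol per array and a grey bar between the means of Jagged1 DMSO and vector MRK-003. The arrays of these ends are apart for all 24 genes, and vector DMSO lies beside vector MRK-003 for Mcam but toward Jagged1 DMSO for Gpr133.

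Upstream sequences were searched for TGGGAA, the core that Rbpj is known to bind, on both strands in the 250 bases before each start site (RefSeq, GRCm38.p6). Of 27025 genes with such a sequence, 24.1% held TGGGAA and 6.18% the longer GTGGGAA, which contains it. Among the 12 largest rises 6 genes had a sequence and 3 held TGGGAA (Bmf, Il6 and Slc17a1), and among the 12 largest falls 8 had one and 2 held it, Ch25h among them. Hey1, Hes1, Heyl and Dtx4 are not in that table. Nrarp and Hes6 are, and neither holds TGGGAA in this window. Windows are shown for 2 genes that rose and hold the motif, for Nrarp, and for Ch25h, which fell and holds it 2 times; all but Nrarp were picked after the search. Capitals mark TGGGAA or its reverse complement TTCCCA, and the strand is the gene's, read toward the start site at the right-hand end. They lie at chr2:118544588-118544837 (minus strand, 1 of 3 Bmf windows in the table and the only one with a match), chr5:30012864-30013113 (plus strand, Il6), chr2:25180508-25180757 (plus strand, Nrarp) and chr19:34475149-34475398 (minus strand, Ch25h). A match describes the letters only, and binding was not measured.
Bmf: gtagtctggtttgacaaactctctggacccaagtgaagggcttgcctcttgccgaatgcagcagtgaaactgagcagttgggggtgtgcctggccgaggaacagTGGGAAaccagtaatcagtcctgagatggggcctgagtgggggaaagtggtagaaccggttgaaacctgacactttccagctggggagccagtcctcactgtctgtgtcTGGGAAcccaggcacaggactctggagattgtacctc
Il6: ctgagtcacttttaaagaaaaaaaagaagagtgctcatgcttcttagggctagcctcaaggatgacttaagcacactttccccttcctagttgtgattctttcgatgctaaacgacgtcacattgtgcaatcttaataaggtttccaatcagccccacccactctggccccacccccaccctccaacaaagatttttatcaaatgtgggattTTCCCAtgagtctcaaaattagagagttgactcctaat
Nrarp: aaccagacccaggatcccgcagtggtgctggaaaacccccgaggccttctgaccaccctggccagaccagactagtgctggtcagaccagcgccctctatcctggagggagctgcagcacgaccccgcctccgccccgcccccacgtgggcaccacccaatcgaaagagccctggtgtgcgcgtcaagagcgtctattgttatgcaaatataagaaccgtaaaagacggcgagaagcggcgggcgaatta
Ch25h: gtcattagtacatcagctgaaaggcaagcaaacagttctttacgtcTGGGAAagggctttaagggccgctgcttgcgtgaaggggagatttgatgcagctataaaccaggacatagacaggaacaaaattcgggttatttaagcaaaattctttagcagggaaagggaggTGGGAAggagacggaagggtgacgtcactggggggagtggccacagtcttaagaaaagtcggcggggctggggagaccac

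The gene groups moved in different directions. Over all genes tested, 3.98% were called higher and 5.53% lower, and each group's counts stand against these shares. Of 30 cell cycle and DNA replication genes, 22 fell, 1 rose and 7 did not pass, with a median of -0.58 (-0.55 on slide 1 and -0.60 on slide 2). They included Ccne2, a cyclin of entry into S phase (-1.13 ± 0.18), the replication helicase subunit Mcm3 (-0.95 ± 0.12), the replication clamp Pcna (-0.87 ± 0.09) and the spindle checkpoint kinase Bub1 (-0.82 ± 0.14). Pcna was at -1.12 and -1.02 with Jagged1 DMSO, -0.35 and -0.05 with vector MRK-003, and -0.53 and -0.20 with vector DMSO, where the vector groups overlapped. Mki67, the usual marker of cycling cells, was at -0.47 and did not pass (limma, adjusted p = 0.124), and Top2a was at -0.14. The member that rose was Cdc20, an activator of the anaphase-promoting complex (0.38; limma, adjusted p = 0.0407). No member rose without the slide term, with backgrounds as deposited or with median centring. The count of falls was 6 without replicate 2 of vector MRK-003, 10 without its replicate 1, 14 without replicate 2 of Jagged1 DMSO and 7 without the slide term.

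Cholesterol synthesis followed, with 10 of 24 genes falling and 0 rising (median -0.38). Ebp, a sterol isomerase, was at -0.63 and -0.47 with Jagged1 DMSO, 0.71 and 0.90 with vector MRK-003, and 0.44 and 0.62 with vector DMSO. Its fall of 1.35 had an SE of 0.08 (limma, adjusted p = 0.000301). Sc5d (-0.95), Idi1 (-0.87) and Msmo1 (-0.79), enzymes of the same pathway, also fell. Without the slide term 2 of the 24 fell and 0 rose. Without replicate 2 of vector MRK-003 2 of the 24 passed, 5 without its replicate 1, 4 without replicate 2 of Jagged1 DMSO, and 6 without either vector DMSO or either Jagged1 MRK-003 array.

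Genes that mark the osteoblast lineage split. Of 20, 6 fell, 2 rose and 12 did not pass (median -0.06). Alpl, the alkaline phosphatase of mineralising bone, was at -2.10 and -1.39 with Jagged1 DMSO, -0.76 and -0.03 with vector MRK-003, and -0.82 and -0.44 with vector DMSO, the last overlapping with vector MRK-003. Its fall of 1.35 had an SE of 0.11 (limma, adjusted p = 0.000814), and without the slide term it did not pass (adjusted p = 0.148). Beside Omd and Alpl, the falls included the transcription factor Runx2 (-0.88), osteocalcin Bglap (-0.77) and bone sialoprotein Ibsp (-0.45). Other Runx2 probes were at -0.83, -0.27 and -0.04. The rises were in Dmp1 (0.75) and Sparc (0.49), both matrix proteins. Col1a1 (0.40), Sp7 (-0.09) and Spp1 (-0.09) did not pass. Without the slide term 2 of the 20 fell and 0 rose. The falls numbered 3 and 4 without replicate 1 and 2 of vector MRK-003 and 4 without replicate 2 of Jagged1 DMSO, and 0 rose in each of these settings.

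Of 14 osteoblast factors that act on osteoclasts, 7 rose and 2 fell (median 0.36). Beside Il6 and Ccn2, the rises were in Tgfb2 (1.68 ± 0.22), Tgfb1 (1.68 ± 0.09), the chemokines Cxcl12 (0.79) and Ccl9 (0.75), and Tgfb3 (0.62). Tgfb1 stood at 1.42 and 1.17 with Jagged1 DMSO, -0.35 and -0.41 with vector MRK-003, and 0.21 and 0.20 with vector DMSO, with all groups apart. Sema3a, which restrains osteoclasts, fell by 0.95, and the monocyte chemokine Ccl2 fell by 0.73. Csf1 (-0.08), a growth factor of osteoclast precursors, and the decoy receptor Tnfrsf11b (-0.15) did not pass. The 14 were those measured of 17 listed factors. With no filter on dim probes 16 were measured, 7 rose and 2 fell, and the median was 0.09. Without the slide term 5 of the 14 rose and 0 fell. The rises numbered 4 without replicate 2 of vector MRK-003. Over 20 cytokines and chemokines, which share Il6, Cxcl12, Ccl9 and Ccl2 with that list, 3 rose and 4 fell (median -0.03). Without the slide term 2 of the 20 rose and 0 fell. Without replicate 2 of vector MRK-003 1 rose and 0 fell, and without its replicate 1 or replicate 2 of Jagged1 DMSO 2 rose and 1 fell.

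Of 27 matrix proteases and crosslinking enzymes, 9 rose and 2 fell (median 0.41). Mmp13, the main collagenase of bone, was at 5.15 and 4.72 with Jagged1 DMSO, 3.17 and 3.17 with vector MRK-003, and 4.19 and 3.47 with vector DMSO. It rose by 1.76 ± 0.16 (limma, adjusted p = 0.0014), with no overlap between the groups. Mmp11 (1.71), Loxl1 (1.58), Loxl3 (1.06), Adamts12 (1.05) and Adamts2 (1.01) rose as well, and the protease inhibitor Timp3 fell by 1.40. Without the slide term 4 of the 27 rose and 1 fell. The rises numbered 5 and 6 without replicate 1 and 2 of vector MRK-003, and 6 without replicate 2 of Jagged1 DMSO.

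Signalling lists were mixed. Among 18 Wnt targets and feedback genes 6 fell and 3 rose (median -0.15): the feedback inhibitors Nkd2 (-2.0), Axin2 and Rnf43 (-1.38) and the ligand Wnt10a fell, while Ccn4 (1.16), Lef1 (0.84) and Wif1 (0.75) rose. Among 17 TGF-beta and BMP response genes 4 rose and 4 fell (median 0.10). Within that list Id1 (0.74) and Id3 (0.61) rose, and the related Id2 (-1.07) and Id4 (-1.10) fell. Other probes were at -0.40 for Id2 and -0.98 for Id4. Of 19 hypoxia and glycolysis genes 7 fell and 1 rose (median -0.31). Slc16a1, a lactate transporter, fell by 1.84 with an SE of 0.08, and its other probes were at -1.76 and -0.36. Bnip3 (-1.37) and the glucose transporter Slc2a1 (-0.97) also fell, while the angiogenic factor Vegfa rose by 1.47 ± 0.11.

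Of 17 interferon-stimulated genes 6 fell and 0 rose (median -0.26), led by Ifit1 (-1.37), Ifit3 (-0.91) and Ifit2 (-0.81). With backgrounds as deposited 1 of the 17 passed and the list's median turned to 0.16. Contractile genes gave 2 rises and 3 falls of 15, with the myosin kinase Mylk at 0.92 and Lmod1 at -0.89. Other Mylk probes were at 1.04 and -0.04, and Acta2, smooth muscle actin, was at 0.01 without a call. Stress response genes gave 2 rises (Ppp1r15a at 0.82, Xbp1 at 0.75) and 2 falls (Chac1 at -0.80, Atf3 at -0.53) of 15. Atf3 was at 0.33 with backgrounds as deposited, without a call (adjusted p = 0.515). Of 16 immediate early genes, which include Atf3, 2 rose (Ier2 at 1.08 and Junb at 1.06) and 4 fell. The falls included Fosl2 (-1.31, with its other probe at -0.18) and Jun (-1.13). Without the slide term rises and falls numbered 0 and 0 for contractile and stress genes and 1 and 0 for TGF-beta and BMP genes. Immediate early genes gave 2 and 1, Wnt genes 1 and 3, hypoxia genes 1 and 2 and interferon genes 0 and 2. Without replicate 2 of vector MRK-003 the TGF-beta and BMP list gave 1 rise and 0 falls, the stress list 0 and 0, the immediate early list 1 and 0 and the contractile list 1 and 0. Without its replicate 1 those lists gave 1 and 1, 1 and 0, 3 and 1, and 1 and 0, in the same order, and Wnt genes 0 rises and 4 falls. Hypoxia genes gave 4 and 3 falls and interferon genes 3 and 2 without replicate 1 and 2. Without replicate 2 of Jagged1 DMSO, Wnt genes gave 1 rise, TGF-beta and BMP genes 2, the stress list 1 rise and 1 fall, and contractile genes 1 rise and 0 falls.

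**Figure D2:**
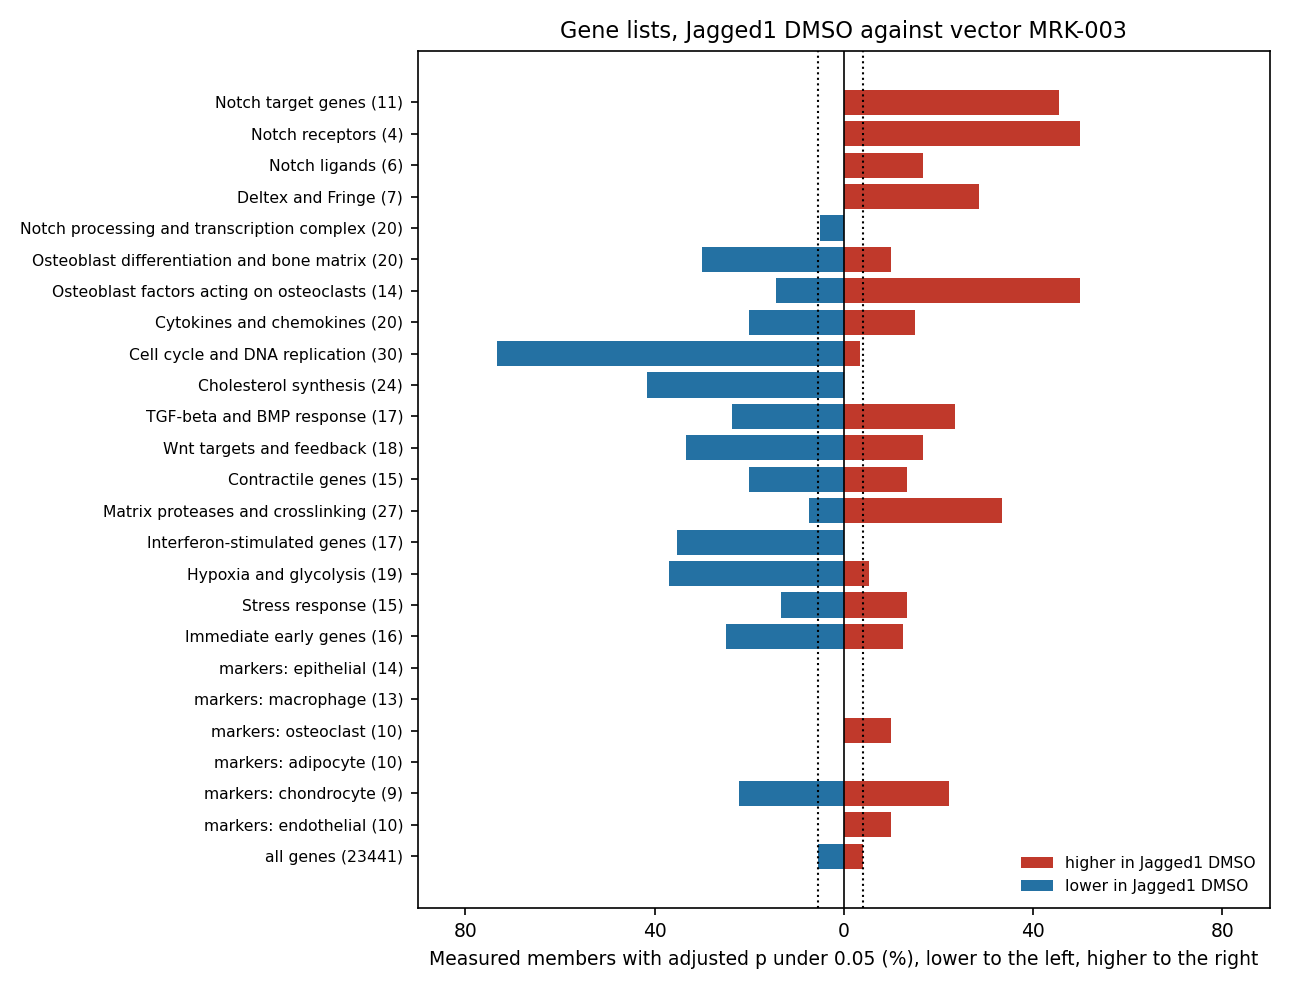
Share of each list's measured members (number in brackets) that passed, lower with Jagged1 DMSO to the left and higher to the right of the zero line, with dotted lines at the shares over all 23441 genes. Cell cycle genes reach farthest to the left (22 of 30), and the lists of Notch receptors (2 of 4) and of factors acting on osteoclasts (7 of 14) farthest to the right.

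Markers of other cells showed few calls, except for chondrocyte markers. The 11 osteoblast markers checked, from Runx2 and Sp7 to Col1a1 and Cdh11, were well above background on both arrays of each end. Of 14 epithelial markers 0 passed in either direction (median 0.12), and their mean level over the reference RNA ranged from -1.90 to -1.89 with Jagged1 DMSO and -1.99 to -1.97 with vector MRK-003. Of 13 macrophage markers 0 passed, with mean levels of -2.21 to -2.14 with Jagged1 DMSO and -2.21 to -2.19 with vector MRK-003, and of 10 adipocyte markers 0 passed. These were the listed markers that passed the filter on dim probes, 14 of 18 epithelial, 13 of 14 macrophage and 10 of 11 adipocyte ones. Those that passed were well above background on both arrays of each end. Among 10 osteoclast markers Itgb3, the beta3 integrin, rose by 1.73 ± 0.09 (limma, adjusted p = 0.000234) by 1 probe and stood at 0.30 by its other, while Acp5 (0.03) and Ctsk (-0.04) did not pass. Among 10 endothelial markers Flt1 rose (1.14, with other probes from -0.03 to 1.10) and Pecam1 (-0.05) and Cdh5 (-0.04) did not pass. Of 9 chondrocyte markers, Col2a1 (0.96) and Col11a2 (0.50) rose and Sox9 (-0.91) and Sox6 (-1.20) fell. Other probes were at 0.625 and -0.15 for Col2a1, 0.12 for Col11a2, -0.14 and -1.20 for Sox9, and -0.64 and -0.455 for Sox6. Without the slide term 1 chondrocyte marker rose and 0 fell, and with backgrounds as deposited 0 rose and 1 fell. The part of other cells in any difference was not tested.

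Among the genes that differed, vector DMSO, with neither added ligand nor inhibitor, usually lay between the ends and closer to vector MRK-003. These genes were picked by the span between the same arrays of the ends, which favours positions inside it. On a scale from 0% at vector MRK-003 to 100% at Jagged1 DMSO, its median position over the 2230 genes was 33.4% (quartiles 17.1% and 50.3%), with 30.3% on slide 1 and 35.9% on slide 2. It was nearer to vector MRK-003 for 1660 genes (74.4%), and on both slides for 1306. By equal parts of the span, 895 genes (40.1%) lay in the part next to vector MRK-003, 890 (39.9%) in the middle and 204 (9.15%) next to Jagged1 DMSO. Beyond the ends lay 218 genes (9.78%) past vector MRK-003 and 23 (1.03%) past Jagged1 DMSO. Among the 411 genes with a difference of at least 1 the median was 32.5%, and 353 (85.9%) were nearer to vector MRK-003. The median was 41.4% for genes that were higher with Jagged1 DMSO and 28.7% for those that were lower, a difference that was not tested and that slide 1 (42.3% and 21.1%) showed more than slide 2 (38.9% and 34.8%).

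This spacing rests on 2 vector DMSO arrays. From group means without a slide term, the median position was 27.1% without its replicate 1 and 39.0% without its replicate 2. It was between 28.1% and 40.3% without 1 of the arrays of the ends. Each of these settings sets a group on 1 slide against groups on 2 slides, so the shifts mix array and slide. Within slides the medians were 30.3% (slide 1) and 35.9% (slide 2). Gene by gene, 0 of 23441 genes (0%) passed by limma for vector DMSO against the midpoint between the ends, while 2503 (10.7%) had an unadjusted p under 0.05. Without replicate 1 of vector DMSO 5 genes passed. Among the 2230 genes, 658 had an unadjusted p under 0.05, with vector DMSO on the vector MRK-003 side in 599 and on the Jagged1 DMSO side in 59. The Jagged1 MRK-003 arrays had a median position of 3.09% over the same genes, close to vector MRK-003. The Notch pathway genes were spread along the scale: vector DMSO was at -1.86% for the dim Nrarp, 9.57% for Jag1, 19.1% for Notch3, 32.8% for Hey1, 42.9% for Notch1, 45.9% for Dtx4 and 67.2% for Hes1. Among other named genes it was at -0.096% for Ccn2, which had overlapping vector arrays, and at -32.9% for Ccl9, below vector MRK-003 on both slides.

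**Figure D3:**
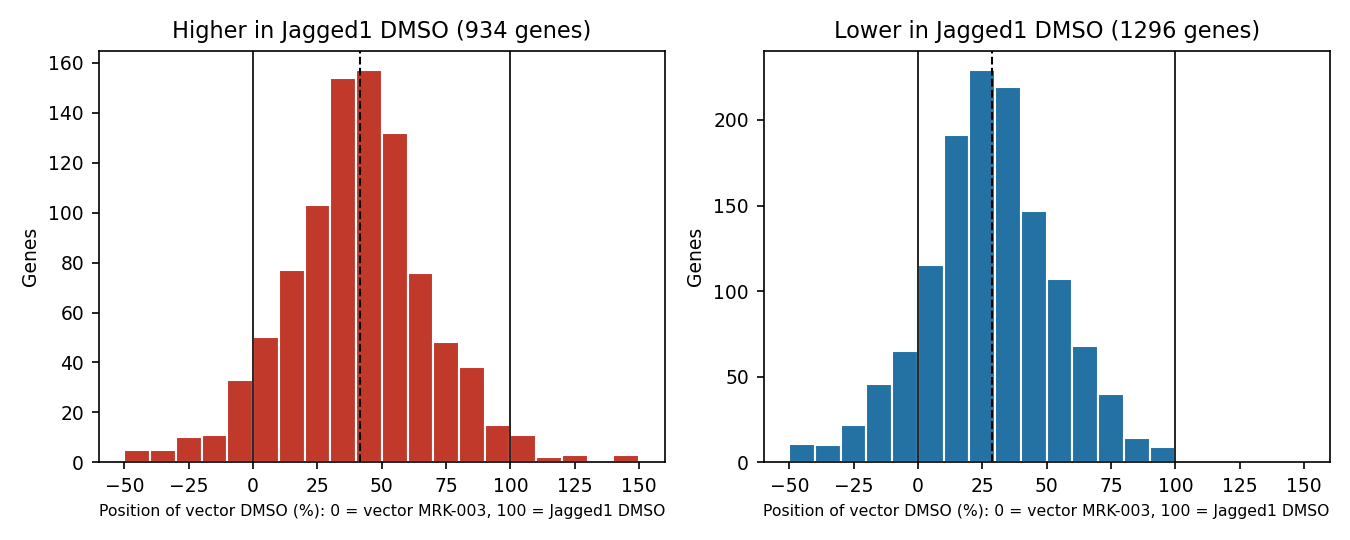
Position of vector DMSO for genes that passed between the ends, on a scale with vector MRK-003 at 0% and Jagged1 DMSO at 100% (solid lines), as numbers of genes per bin, with the median dashed. The 934 genes higher with Jagged1 DMSO centre on 41.4% and the 1296 lower ones on 28.7%; 2 and 5 genes farther below are drawn in the first bin.

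Genes with vector DMSO at the low end, picked by the smallest p of the midpoint comparison among differences of at least 1, were Mcam (6.77%), the Wnt inhibitor Nkd2 (8.16%), the focal adhesion protein Tns1 (-2.77%), the membrane protein Lrrc15 (-0.87%), the proteoglycan Ogn (7.40%) and Cd34 (22.7%). Nkd2 was at 0.27 and 0.40 with Jagged1 DMSO, 2.25 and 2.42 with vector MRK-003, and 2.17 and 2.17 with vector DMSO. Only the Jagged1 DMSO arrays stood away from the others. Tns1 rose by 1.61 ± 0.09, and Lrrc15 and Ogn fell by 1.42 and 1.99 (limma, adjusted p from 0.000234 to 0.000303 for the 3 genes). Other probes gave 0.01 for Lrrc15, -0.93 for Nkd2 and values from 0.02 to 1.65 for Tns1.

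At the other side, with vector DMSO toward Jagged1 DMSO, the genes were Ier2 (103.4%), the growth factor receptor Pdgfra (83.1%), Hes1 (67.2%), the antiproliferative gene Btg2 (91.0%), the aldehyde dehydrogenase Aldh3a1 (63.0%) and the AP-1 subunit Junb (81.7%). Junb was at 0.08 and 0.41 with Jagged1 DMSO, -0.94 and -0.70 with vector MRK-003, and 0.17 and -0.07 with vector DMSO. Jagged1 DMSO and vector DMSO overlapped, and vector MRK-003 lay below both. Pdgfra stood at -0.83 and -0.61 with Jagged1 DMSO, -1.84 and -1.72 with vector MRK-003, and -1.12 and -0.68 with vector DMSO, and its other probe had a difference between the ends of 0.23. These 6 genes all passed between the ends (limma, adjusted p from 0.000272 to 0.0129). Some of these calls rest on single arrays: Btg2 was lost without replicate 2 of Jagged1 DMSO (adjusted p = 0.07) and without replicate 1 (0.0881) or 2 (0.0867) of vector MRK-003, Ier2 without replicate 2 of vector MRK-003 (0.0834), and Junb without its replicate 1 (0.0523).

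The step from vector DMSO up to Jagged1 DMSO and the step down to vector MRK-003 share the vector DMSO arrays and were each tested. Between Jagged1 DMSO and vector DMSO 898 genes passed (3.83%), 326 of them higher (1.39%) and 572 lower (2.44%), of which 795 also passed between the ends. The higher share was 36.3%, and 26.0% of 1046 genes with arrays centred on the median in place of loess. It turned to the higher side in some settings: 32 of 41 genes (78.0%) with no slide term, 56.2% of 160 without replicate 1 of vector DMSO and 50.9% of 346 without replicate 2 of Jagged1 DMSO. The count fell to 135 and 160 without replicate 2 and 1 of vector DMSO, to 346 without replicate 2 of Jagged1 DMSO, to 501 without either vector MRK-003 array and to 475 without either Jagged1 MRK-003 array. The median size of the step over the 2230 genes was 0.44 toward Jagged1 DMSO and 0.24 toward vector MRK-003. For cell cycle genes the median step was -0.51 for Jagged1 DMSO minus vector DMSO and 0.07 for vector MRK-003 minus vector DMSO, and for cholesterol synthesis -0.29 and 0.00. For hypoxia and glycolysis genes it was -0.16 and 0.35. Immediate early genes had medians of -0.34 and -0.39, with members on both sides of 0 in both steps.

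Between vector MRK-003 and vector DMSO 7 genes passed (0.0299%), 1 higher (0.00427%) and 6 lower (0.0256%) with vector MRK-003, and 2418 (10.3%) were under 0.05 before adjustment. They were Hey1, Hes1, Dtx4, Aldh3a1, Prag1, C1qtnf5 and, higher, Ifi27l2a; the last 3 were named after their values were seen. All 7 also passed for the other step and between the ends, so each had 3 separate levels. Prag1, a pseudokinase, was at 1.95 and 1.78 with Jagged1 DMSO, -0.50 and -0.66 with vector MRK-003, and 0.41 and 0.21 with vector DMSO, a position of 36.4%. The interferon-inducible Ifi27l2a was at -3.56 and -3.28 with Jagged1 DMSO, -1.65 and -1.33 with vector MRK-003, and -2.56 and -2.30 with vector DMSO, a position of 48.7%. C1qtnf5, a secreted C1q and TNF related protein, had 2.21 and 2.13 with Jagged1 DMSO, 0.12 and 0.07 with vector MRK-003, and 1.11 and 1.09 with vector DMSO (48.3%). The steps to vector MRK-003 were -1.83 for Hey1, -1.36 for Hes1, -1.48 for Dtx4, -1.23 for Aldh3a1, -0.89 for Prag1, -1.0 for C1qtnf5 and 0.94 for Ifi27l2a (limma, adjusted p from 0.0316 to 0.0465). With arrays centred on the median 17 genes passed, all of them lower. They held 5 of the 7, and Ifi27l2a was not among them. Most of the 7 did not pass when any 1 of the 8 arrays was left out. For 0 genes did vector DMSO lie outside both ends with both steps passing.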

How the data were processed

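Messenger RNA of 8 co-cultures was read on Agilent mouse arrays, with Cy3 for the co-culture and Cy5 for a reference RNA, without dye swaps. Per the file headers, the authors extracted spots with Agilent Feature Extraction 9.5.3.1. The deposited intensity values used here were mean signals and median local backgrounds, not normalized. The authors' deposited value table, in log2, matched the scanner software's processed Cy3 over Cy5 plus a constant per array (100% of probes within 0.02, column medians 0.11 to 0.21), so its direction and scale are known. Deposited 0 or 1 flags (a unit of their own) marked outliers and spots well above background.

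Local backgrounds over 2 times the array median were set to the median, normexp used an offset of 50, and loess ran within arrays with 1639 of 45018 spots, the controls, at no weight. Outlier spots removed 303 of 41174 probes, and a filter on dim probes, which asked that some group have both arrays well above background in Cy3, removed 7811. RefSeq accessions named 22951 probes and 18223 kept the file's name; each of 23441 genes took its brightest probe, and 6957 had several. limma 3.58.1 in R 4.3.3 fitted 4 group means and slide to 8 arrays (3 residual degrees of freedom), with adjusted p by Benjamini-Hochberg over all genes, and the procedure was tested on simulated data. The number of arrays limits the precision. Same-numbered arrays share a slide and deviated together (correlations of 0.371 to 0.855 for every pair of groups), which pairs them.

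Named genes were the 12 largest rises and falls without overlap, 6 genes on each side of the midpoint, all measured Notch targets, receptors, ligands, Deltex and Fringe genes, up to 4 passing members of each other list, and Il6; further list members are named from the list counts, and some members are not reported here. Members and lists were chosen with earlier results of these data known. Figures used Python 3.11.15 and matplotlib 3.10.9.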

Additional observations from a re-analysis of the deposited data

How the results depend on the processing

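With no replicate block 498 genes passed between the ends, all among the 2230, as did 41 for Jagged1 DMSO against vector DMSO, 0 for vector MRK-003 against vector DMSO and 0 for the midpoint. With local backgrounds as deposited 898, 108, 0 and 0 passed in that order, and with those and no replicate block 187, 4, 0 and 0. The deposited value table gave 1029, 257, 0 and 0. Cy3 alone gave 1465 between the ends and 0 for vector MRK-003 against vector DMSO, the 4 arrays of the ends gave 1334, and 6 arrays of 3 groups gave 475 for the Jagged1 step and 0 for the MRK-003 step. For that last step median centring gave 17 and probes well above background on all 8 arrays 1. Leaving out 1 array gave 579 to 2922 genes between the ends, 135 to 1069 and 0 to 4 for the Jagged1 and MRK-003 steps, 0 to 5 for the midpoint and median positions of 27.1% to 40.3%. Settings that leave out arrays have fewer samples by construction, and their median positions came from group means without a slide term. For the other settings the cause was not tested. Of 90 named genes that passed, 53 did so with no replicate block, 63 with backgrounds as deposited, 75 in the value table, and 56 without replicate 2 of vector MRK-003. Atf3 turned to 0.333 with backgrounds as deposited, with or without the block; no other named gene that passed changed sign in any setting run. The median over all genes moved by no more than 0.1 in any setting, but medians of lists moved more. With backgrounds as deposited, 14 of 24 list medians moved by at least the SD of their 2 slide medians, and 4 changed sign. The median went from -0.03 to 0.33 for cytokines and chemokines and from 0.02 to 0.51 for macrophage markers. Depth limits dim genes, since slide 2 had fewer spots well above background.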
